A study of Drosophila melanogaster with 31 samples.

Results

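The germ plasm genes described here were the 7 rows of the ovary expression table whose symbol was osk, nos, vas, tud, pgc, gcl or vls, of 9251 genes in the table, and all 7 also had a row in the separate table of the bam mutant. They were followed through 31 poly(A) RNA-seq libraries of whole Drosophila melanogaster ovaries. Total mRNA made up 16 of these libraries in 8 groups of 2, input and polysome RNA 12 libraries in 6 groups of 2, and bam-deficient ovaries 3 single libraries. Per the series title, the study concerns RNA degradation at the passage from the germ cell to the maternal program. Young wild type ovaries were dissected 0 to 3 hours after eclosion and all other ovaries 1 to 3 days after it. Young and adult wild type shared a genotype, w[1118] with the transgenes UAS-Dcr-2.D and GAL4-nos.NGT, so the controls carried the driver without a hairpin. The tst mutant was tstMB10212 over Df(3R)Exel9013, which affects every cell, and tst RNAi was UAS-Dcr2;nosGAL4>tst RNAi, in which the nanos driver acts in the germ line. The pelo mutant, pelo1/pelo1, was set against pelo1/CyO, and the hfp mutant, hfp9/hfp9, against hfp9/TM2, so both of these controls carried a mutant allele over a balancer. In the polysome set, tst RNAi and pelo mutant ovaries had those same genotypes, control preparation 1 had the adult wild type genotype and control preparation 2 was pelo1/CyO. The bam libraries were nosGAL4>bam RNAi, as input and as polysomes, and the bam{delta}86 mutant.

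Germ plasm is the cytoplasm at the posterior pole of the Drosophila oocyte and early embryo that directs the formation of the primordial germ cells. Its assembly begins when osk mRNA, made in the nurse cells, is carried to the posterior pole and translated there into Oskar protein, which gathers the helicase Vasa, the scaffold protein Tudor and the methylosome protein Valois, encoded by vas, tud and vls. The mRNAs of nos, pgc and gcl then accumulate in it, and their proteins act in the future germ cells as a translational repressor, a repressor of transcription and a factor for germ cell formation. All of these mRNAs are made in the germ line of the ovary and handed to the egg.

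In the RefSeq annotation of Release 6 (the reads were aligned to dm6), the whole spans of the genes, exons and introns included, were chr3R:8935126-8938395 for osk, chr3R:19157238-19160202 for nos (there called nanos), chr2L:15061656-15074311 for vas and chr2R:21183322-21192913 for tud. The span of pgc was chr2R:22330200-22332813, that of gcl chr2R:8724258-8728999 and that of vls chr2L:20064261-20065679. Other genes overlapped 6 of the 7 spans. The span of osk shared 2680 bases with lncRNA:osk, which has no level of its own in these data. It also shared 162 bases with asRNA:CR44020, which was at 0.49 to 21.8 TPM across the libraries. That of vas shared bases with solo (0.71 to 24.6 TPM) and vig (12.6 to 183 TPM), and that of pgc shared 1873 bases with T3dh (2.27 to 43.8 TPM). The span of nos shared 2641 bases with CG11779 and 104 bases with Nsun5, and that of vls 121 bases with lok. That of gcl shared 36 bases with CG30356 and 161 bases with snoRNA:gcl-a. Reads on such shared stretches can be given to either gene where the counting did not use strand, and replicate 1 of the wild type and tst total mRNA groups has a strand label of N/A.

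Levels are given in TPM, read counts divided by transcript length and scaled to a fixed total, turned back from the deposited log2 values. The depth of sequencing is unknown because TPM hold no read numbers, and 7233 to 8675 genes reached 1 TPM in a library. Each log2 fold change is a difference of group means on the log2(TPM + 1) scale, estimated with limma and given with its standard error (SE), and it was called at a Benjamini-Hochberg adjusted p under 0.05 over all genes tested. The labels do not tell whether the replicates came from separate flies, so p-values measure only the spread between these libraries. In RNA of whole ovaries, fewer cells of a type and less RNA per cell cannot be told apart. In total mRNA each targeted gene stood below its controls in both libraries without passing the test (adjusted p = 0.0522 to 0.449): tst was at 6.34 and 8.62 TPM in its mutant and at 6.77 and 11.7 TPM with RNAi, against 35.3 and 39.6 TPM in adult ovaries, pelo at 10.8 and 44.6 TPM in the pelo mutant against 45.1 and 90.5 TPM in its heterozygote, and hfp at 9.29 and 20.8 TPM in the hfp mutant against 25.8 and 48.1 TPM in its heterozygote. In the inputs tst passed (log2 fold change -0.92, SE 0.29, adjusted p = 0.0256), as did pelo, at 33.1 and 34.4 TPM in its mutant, against 137 and 76.9 TPM in control (adjusted p = 0.00507). All 7 genes of a germ line marker list (aub, AGO3, otu, ovo, orb, bru1 and spn-E) were at 1 TPM or more in every library.

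In total mRNA osk was the most abundant of the 7 in every library. The organiser gene osk ranged from 398 to 2214 TPM with a median of 1229 TPM over 16 libraries, and stood between rank 85 and rank 274 of the table. The median of nos was 297 TPM, that of pgc 270 TPM and that of vas 257 TPM. The 3 others had medians of 205 TPM for gcl, 105 TPM for tud and 67.2 TPM for vls. The ratio of the highest to the lowest library was 16.5 for nos, 10.4 for tud, 6.87 for pgc, 6.09 for gcl, 5.56 for osk and 4.16 for vas, while vls stayed within 2.09.

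Ordered by mean level, young wild type stood last of the 8 groups for nos (68.4 ± 9.70 TPM, SD, n = 2), pgc (98.0 ± 6.66 TPM) and gcl (79.8 ± 25.8 TPM), with the tst mutant next above it for each. For vls the order was the other way, with young wild type first (106 ± 3.38 TPM) and adult wild type last (55.7 ± 5.58 TPM). For osk every group overlapped its neighbour in the order, and the same held for vas. Neighbours that did not overlap were the hfp heterozygote above adult wild type for nos and for gcl, the hfp mutant above young wild type for tud, the hfp heterozygote above the pelo heterozygote for pgc and young wild type above the pelo heterozygote for vls. For tud the low values were libraries and not groups: the pelo libraries numbered 1 were at 22.2 TPM in the mutant and 21.6 TPM in the heterozygote, and those numbered 2 at 165 and 172 TPM.

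**Figure D1:**
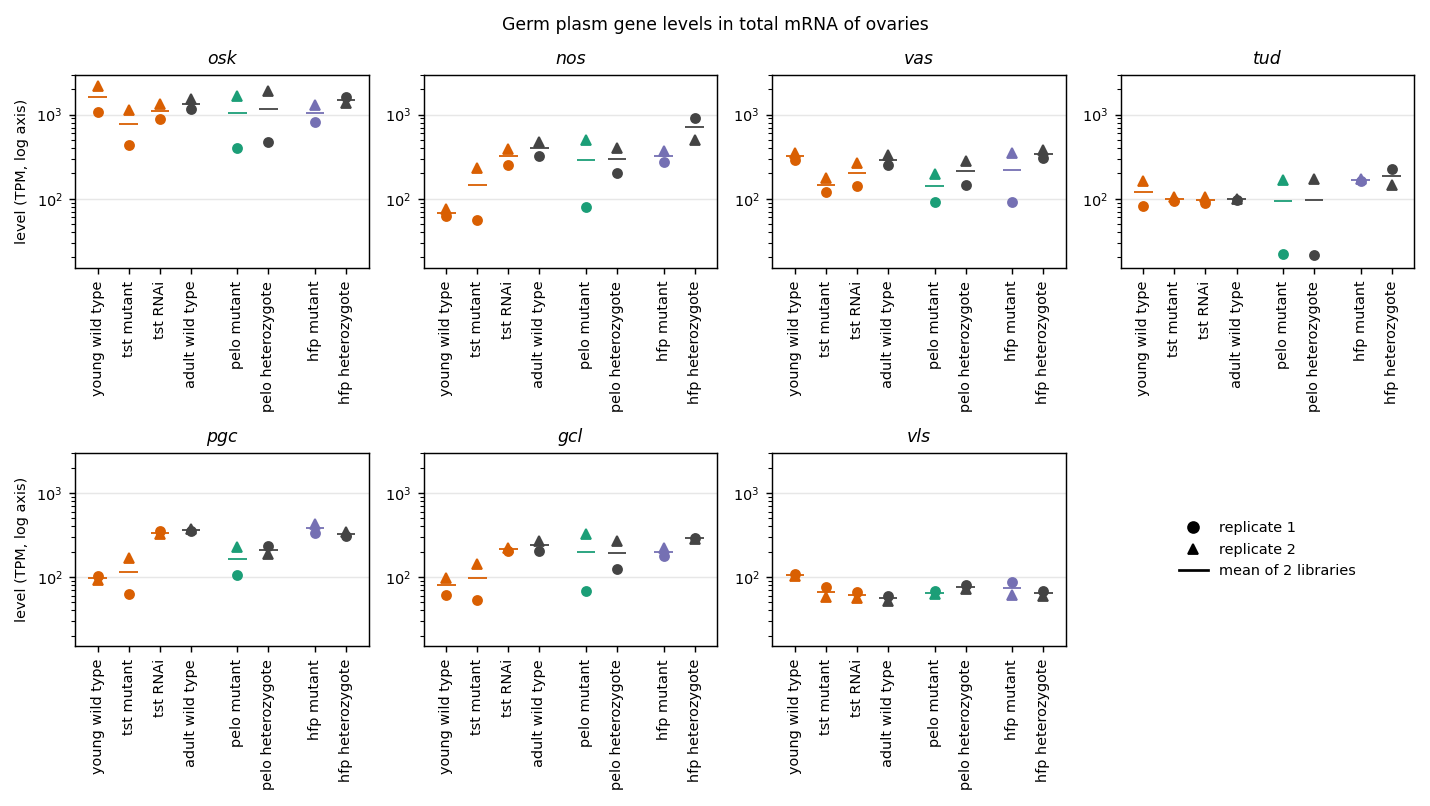
Level of each germ plasm gene in TPM on a log axis in the 16 total mRNA libraries, by group, with circles for replicate 1, triangles for replicate 2 and a line at the mean of 2 libraries. For nos, pgc and gcl both young wild type libraries (61.6 to 103 TPM) lie below both adult wild type libraries (205 to 479 TPM), while osk and vas overlap.

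The comparison of young with adult wild type ovaries is one of age in a single genotype. Young ovaries had less pgc mRNA, and both young libraries also stood below both adult libraries for nos and gcl, the other mRNAs carried in germ plasm. The levels of osk, vas and tud overlapped. The transcriptional repressor gene pgc was at 103 and 93.3 TPM in young ovaries, against 354 and 370 TPM in adult ovaries. Both young libraries were below both adult ones, with a log2 fold change of -1.88 (SE 0.43, adjusted p = 0.0156), the only difference called among the 7 members. Of all 8864 genes tested 11.1% were called, 3.16% as lower. The call was lost when any 1 of the 4 libraries was left out (adjusted p = 0.0809 to 0.112).

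The translational repressor gene nos was at 61.6 and 75.3 TPM in young ovaries, against 320 and 479 TPM in adult ovaries. It had the largest difference of the 7 without passing the test (log2 fold change -2.51, SE 0.79, adjusted p = 0.0629). The germ cell formation gene gcl was at 61.6 and 98.1 TPM in young ovaries, against 205 and 272 TPM in adult ovaries (-1.59, SE 0.64, adjusted p = 0.151). Neither pair of groups overlapped. In the other direction the methylosome gene vls was at 108 and 103 TPM in young ovaries, against 59.6 and 51.7 TPM in adult ovaries (0.91, SE 0.28, adjusted p = 0.0577), again with no overlap. Groups that did not overlap were common over all genes in this comparison, 36.2% of genes with young below and 30.8% with young above.

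The mRNA of osk was at 1066 and 2214 TPM in young ovaries, against 1166 and 1520 TPM in adult ovaries, and that of the helicase gene vas at 287 and 354 TPM in young ovaries, against 250 and 334 TPM in adult ovaries. The scaffold gene tud was at 82.3 and 161 TPM in young ovaries, against 96.2 and 99.9 TPM in adult ovaries. These 3 genes overlapped between the groups, and their 95% intervals of the log2 fold change ran from -1.43 to 1.84 for osk, -1.14 to 1.43 for vas and -1.73 to 2.18 for tud. Within a library, nos stood at 0.0578 and 0.0340 of the osk level in young ovaries, against 0.275 and 0.315 in adult ovaries, and pgc at 0.0963 and 0.0421, against 0.303 and 0.243. Such ratios do not depend on how a library is scaled, and for both genes the young values were below every other total mRNA library.

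**Figure D2:**
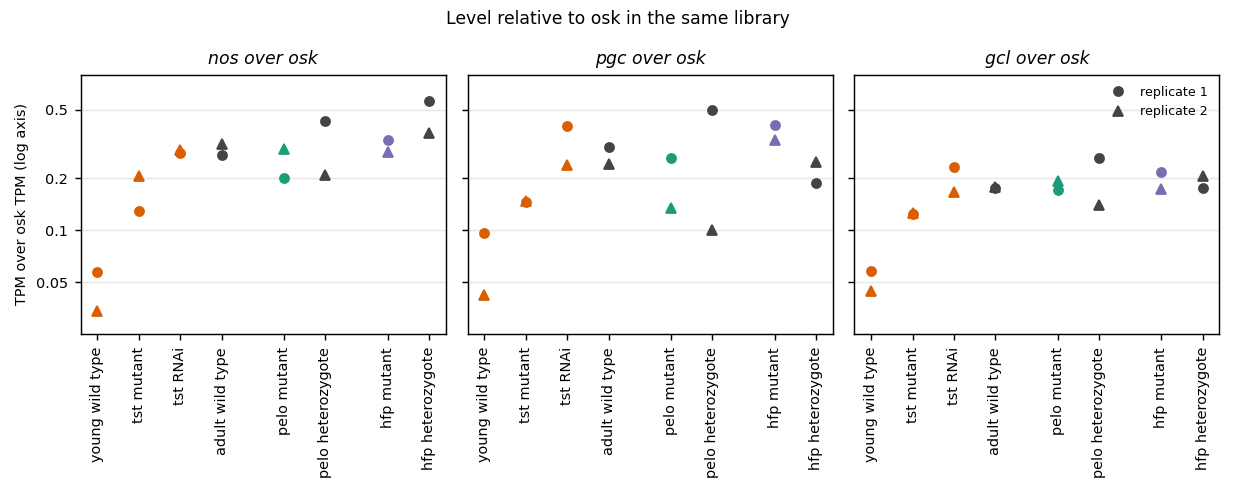
Level of nos, pgc and gcl divided by the osk level in the same library, on a log axis, in the 16 total mRNA libraries, with circles for replicate 1 and triangles for replicate 2. The young wild type ratios for nos (0.0578 and 0.0340) and pgc (0.0963 and 0.0421) are the lowest plotted for those genes, and the tst mutant ratios lie between them and adult wild type.

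In these groups the replicate number also marked the strand label, and libraries of the same number deviated together, so fits with the replicate number as a block are given where they change a call. With that block 4 members were called in young ovaries, nos (adjusted p = 0.00219), pgc (adjusted p = 0.00371) and gcl (adjusted p = 0.00302) as lower and vls (adjusted p = 0.00314) as higher, where 37.5% of all genes were called. Scaling libraries to equal medians, which put the median log2 fold change of all genes at 0.21 in place of -0.05, called 3 members, as it did 14.9% of all genes: nos (-2.22, adjusted p = 0.0224), pgc (-1.59, adjusted p = 0.0157) and gcl (-1.30, adjusted p = 0.0463). None of the 33 tested genes of a list for osk mRNA transport, osk and nos translation, assembly partners and other germ plasm RNAs passed the test in young ovaries, with a median of -0.08 beside -0.05 for all genes, and 2 were called higher and 1 lower with equal medians. Late egg chamber RNA differed far more. The 10 genes of an eggshell list summed to 238 and 334 TPM in young ovaries, against 84390 and 66958 TPM in adult ovaries, and 9 and 10 of them reached 1 TPM in the young libraries. Muscle sheath markers, 8 genes, summed to 4978 and 6527 TPM in young ovaries, against 433 and 292 TPM in adult ovaries, and the part of these shifts in the member values was not tested.

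The tst gene encodes the Ski helicase that threads RNA into the exosome. Its mutant's genotype label lists neither transgene of adult wild type, so mutation and background cannot be told apart in this comparison. In total mRNA both tst mutant libraries stood below both adult ones for osk, nos, vas, pgc and gcl, as for 31% of all genes. The level of pgc was 62.8 and 167 TPM in the tst mutant, against 354 and 370 TPM in adult wild type (log2 fold change -1.81, SE 0.43, adjusted p = 0.0378). Both mutant libraries lay below both adult ones although they differed from each other more than the adult ones did. This was the only member called, where 4.23% of all genes were called and 0.677% as lower. It was lost without tst mutant replicate 1 (-1.11, adjusted p = 0.411) and without either adult library (adjusted p = 0.214 and 0.219).

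For nos the values were 55.7 and 233 TPM in the tst mutant, against 320 and 479 TPM in adult wild type (-1.77, SE 0.79, adjusted p = 0.252). For gcl they were 53.4 and 142 TPM in the tst mutant, against 205 and 272 TPM in adult wild type (-1.43, SE 0.64, adjusted p = 0.258). The organiser osk stood at 432 and 1127 TPM in the tst mutant, against 1166 and 1520 TPM in adult wild type (-0.93, SE 0.75, adjusted p = 0.602), and vas at 119 and 176 TPM, against 250 and 334 TPM (-0.99, SE 0.59, adjusted p = 0.432). For all 4 both mutant libraries stood below both adult ones, as for pgc, a pattern that 31% of all genes showed. By comparison tud was at 93.6 and 105 TPM in the tst mutant, against 96.2 and 99.9 TPM in adult wild type, and vls at 76.8 and 57.5 TPM, against 59.6 and 51.7 TPM, both with overlap. With the replicate number as a block 5 members were called lower, osk (adjusted p = 0.0256), nos (adjusted p = 0.0185), vas (adjusted p = 0.0347), pgc (adjusted p = 0.00705) and gcl (adjusted p = 0.00817), where 23.5% of all genes were called.

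The spread within the tst mutant was wide for nos, pgc and gcl, and replicate 1 was the lower library for 6 of the 7 members, all but vls. Eggshell genes summed to 15002 and 17081 TPM in the tst mutant, against 84390 and 66958 TPM in adult wild type, and early follicle cell markers to 357 and 217 TPM, against 107 and 99.6 TPM. The germ line list summed to 610 and 991 TPM in the tst mutant, against 1179 and 1312 TPM in adult wild type, with replicate 1 the lower as for the members. Muscle sheath markers summed to 2335 and 1350 TPM in the tst mutant, against 433 and 292 TPM in adult wild type, and hemocyte markers to 593 and 206 TPM, against 53.1 and 36.4 TPM. The part of these shifts in the member values was not tested. The 33 pathway genes had no call and a median of -0.24, beside 0.02 for all genes.

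In tst RNAi, where the hairpin is driven in the germ line, none of the 7 members was called in total mRNA (1.02% of all genes were called, and 688 genes had an unadjusted p under 0.05, no member among them). The level of pgc was 354 and 321 TPM in tst RNAi, against 354 and 370 TPM in adult wild type (-0.10, SE 0.43), and that of nos 250 and 393 TPM, against 320 and 479 TPM (-0.32, SE 0.79). The largest difference was that of vas, at 141 and 265 TPM in tst RNAi, against 250 and 334 TPM in adult wild type (-0.58, SE 0.59). Every member overlapped between the groups (14.1% of all genes had tst RNAi below and 21.5% above without overlap), the replicate block called none, and the 95% interval for pgc ran from -1.04 to 0.84. The 33 pathway genes had no call either, with a median of -0.07 beside 0.04 for all genes. Eggshell genes summed to 59816 and 40043 TPM in tst RNAi, against 84390 and 66958 TPM in adult wild type. In the same order, muscle sheath markers summed to 2753 and 2648 TPM, against 433 and 292 TPM. Hemocyte markers summed to 382 and 200 TPM in tst RNAi, against 53.1 and 36.4 TPM. The part of these shifts in the member values was not tested.

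The pelo gene encodes a factor that frees stalled ribosomes, and hfp a splicing factor. No member was called in the pelo mutant (0.226% of all genes were called), where all 7 fold changes were below 0 and the median was -0.27, beside -0.01 for all genes. The 2 pelo pairs differed in direction for nos, tud, pgc and gcl. In both pairs osk, vas and vls were lower in the mutant, with vas at 90.8 and 196 TPM, against 146 and 280 TPM in the heterozygote. In replicate 1 nos was at 79.9 TPM in the mutant, against 201 TPM in the heterozygote, and pgc at 105 TPM, against 232 TPM. In replicate 2 nos was at 502 TPM in the mutant, against 397 TPM in the heterozygote, and pgc at 227 TPM, against 189 TPM. Groups overlapped for every member but vls, at 68.6 and 62.3 TPM in the pelo mutant, against 79.6 and 72.6 TPM in its heterozygote (-0.21, SE 0.28), a pattern of 3.88% of all genes. Both pelo replicates numbered 1 had low germ line marker sums, 474 TPM in the mutant and 543 TPM in the heterozygote, beside 1724 and 1852 TPM in those numbered 2.

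In the hfp mutant 5 of 7 fold changes were below 0 and none was called (0.993% of all genes were called). The largest was that of nos, at 274 and 369 TPM in the hfp mutant, against 917 and 505 TPM in its heterozygote (-1.09, SE 0.79, adjusted p = 0.819). Both mutant libraries were below both controls for nos, for osk (815 and 1291 TPM, against 1633 and 1378 TPM) and for gcl (178 and 224 TPM, against 289 and 286 TPM), as for 23.5% of all genes. In the hfp mutant the germ line list summed to 715 and 1274 TPM, against 1681 and 1770 TPM in its heterozygote. Muscle sheath markers summed to 1915 and 1277 TPM in the hfp mutant, against 404 and 255 TPM. The part of these shifts in the member values was not tested. For vas the mutant replicates were far apart, at 92.0 and 351 TPM, against 301 and 378 TPM in the heterozygote. The cargo gene pgc was at 334 and 431 TPM in the hfp mutant, against 307 and 344 TPM in its heterozygote (0.22, SE 0.43, adjusted p = 0.953). The hfp effect less the pelo effect was called for no member (0.248% of all genes were called), with a largest difference of 0.66 (SE 0.61) for pgc. The replicate block called no member in pelo, in hfp or in their difference, and none of the 33 pathway genes passed in any of these comparisons.

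**Figure D3:**
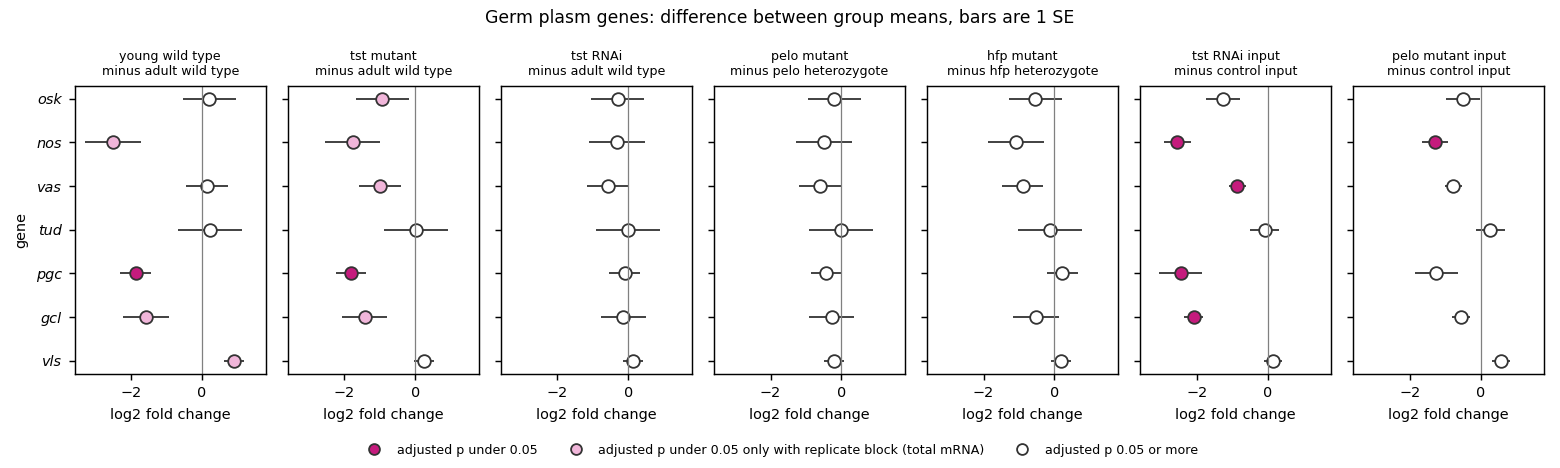
Difference between group means of log2(TPM + 1) for each germ plasm gene in 7 comparisons, with bars of 1 SE. Filled points have an adjusted p under 0.05, and pale points only with the replicate number as a block, marked for total mRNA alone. All other points are open, among them osk in the tst RNAi inputs, which that block also called. pgc is filled in young wild type and the tst mutant, gcl, nos, pgc and vas in the tst RNAi inputs, and nos in the pelo mutant inputs.

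The input libraries hold the total mRNA of the ovaries used for polysomes, and in them nos, gcl, pgc and vas were lower in tst RNAi than in control ovaries. The level of nos was 84.1 and 63.1 TPM in tst RNAi inputs, against 516 and 360 TPM in control inputs (log2 fold change -2.55, SE 0.37, adjusted p = 4.23e-04). That of gcl was 45.8 and 42.6 TPM in tst RNAi inputs, against 181 and 201 TPM in control inputs (-2.08, SE 0.26, adjusted p = 1.74e-04). For pgc it was 64.1 and 66.2 TPM in tst RNAi inputs, against 564 and 229 TPM in control inputs (-2.45, SE 0.61, adjusted p = 0.00914). Both tst RNAi libraries were below both controls for these genes, as they were for 46.9% of all genes. The pgc call was lost without control preparation 1 (-1.80, adjusted p = 0.0929).

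The helicase gene vas was the fourth member called, at 143 and 133 TPM in tst RNAi inputs, against 291 and 216 TPM in control inputs (-0.86, SE 0.24, adjusted p = 0.0176), a call lost without either tst RNAi library or without control preparation 1 (adjusted p = 0.0681 to 0.142). So 4 of 7 members were lower, in a comparison where 40% of all genes were called and 21.3% as lower. The organiser osk was at 330 and 318 TPM in tst RNAi inputs, against 841 and 718 TPM in control inputs (-1.26, SE 0.48, adjusted p = 0.0583), also with both tst RNAi libraries below both controls. Values of tud overlapped, at 54.5 and 37.8 TPM in tst RNAi inputs, against 35.8 and 64.3 TPM in control inputs, as did those of vls, at 52.7 and 55.0 TPM, against 39.1 and 59.3 TPM. With equal medians the median of all genes was 0.27 in place of -0.16 and 36.2% of genes were called, 25.2% as higher and 11% as lower, among them nos (-2.09, adjusted p = 2.96e-04), pgc (-1.99, adjusted p = 0.0152) and gcl (-1.63, adjusted p = 1.65e-04) as lower, but not vas (-0.40, adjusted p = 0.227).

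Among the 33 pathway genes 13 were lower in the tst RNAi inputs and 1 higher, and with equal medians 11 were lower and 3 higher. The lowest adjusted p values were those of wisp, the cytoplasmic poly(A) polymerase of the egg (-2.83, SE 0.26, adjusted p = 2.98e-05), the actin nucleator spir (-1.99, SE 0.30, adjusted p = 4.82e-04), CycB, whose mRNA is kept in germ plasm (-2.73, SE 0.42, adjusted p = 5.90e-04), and smg, a repressor of nos translation (-3.22, SE 0.58, adjusted p = 0.00153). The higher one was the tropomyosin gene Tm1 (0.65, SE 0.20, adjusted p = 0.0220). Eggshell genes summed to 8088 and 7057 TPM in tst RNAi inputs, against 42767 and 69805 TPM in control inputs, and muscle sheath markers to 4978 and 4933 TPM, against 332 and 430 TPM. The germ line list summed to 619 and 507 TPM in tst RNAi inputs, against 1430 and 1228 TPM in control inputs. The part of these shifts in the member values was not tested.

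The tst RNAi effect thus had different values in the inputs and in total mRNA, and a contrast of both effects, added after these values were seen, called no member (1.05% of 8932 genes were called). The difference was -2.34 (SE 0.80, adjusted p = 0.189) for pgc, -2.23 (SE 0.96, adjusted p = 0.316) for nos and -1.94 (SE 0.76, adjusted p = 0.260) for gcl. With the replicate number as a block, by which the total mRNA libraries but not the inputs deviated together, nos (adjusted p = 0.0336) and gcl (adjusted p = 0.0128) were called, as were 8.63% of all genes. An unadjusted p under 0.05 was found for these 3 members and for 1192 genes in all. Input and total mRNA of tst RNAi carry the same genotype label, and their eggshell sums were 8088 and 7057 TPM in the inputs and 59816 and 40043 TPM in total mRNA. Their controls do not match in genotype, since control input 2 was pelo1/CyO and both adult wild type libraries carried the driver.

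In pelo mutant inputs only nos was called, where 12.2% of all genes were called and 1.85% as lower. Its level was 172 and 179 TPM in pelo mutant inputs, against 516 and 360 TPM in control inputs (-1.29, SE 0.37, adjusted p = 0.0447). The call was lost when any 1 of the 4 libraries was left out (adjusted p = 0.0569 to 0.321). The level of pgc was 165 and 136 TPM in pelo mutant inputs, against 564 and 229 TPM in control inputs (-1.25, SE 0.61, adjusted p = 0.187), and that of vas 130 and 165 TPM, against 291 and 216 TPM (-0.77, SE 0.24, adjusted p = 0.0646). Both pelo libraries were below both controls for osk, nos, vas, pgc and gcl, as for 44.9% of all genes, and above them for vls (77.4 and 67.2 TPM, against 39.1 and 59.3 TPM; 27.6% of all genes). Germ line genes summed to 792 and 1053 TPM in pelo mutant inputs, against 1430 and 1228 TPM in control inputs, and eggshell genes to 35612 and 28578 TPM, against 42767 and 69805 TPM. Muscle sheath markers summed to 3075 and 4066 TPM in pelo mutant inputs, against 332 and 430 TPM in control inputs, and 6 hemocyte markers to 259 and 409 TPM, against 35.8 and 40.0 TPM. The part of these shifts in the nos value was not tested. Of 33 pathway genes only BicD, an adaptor for dynein transport, passed (-1.08, SE 0.32, adjusted p = 0.0487). Both tst RNAi and pelo were set against the same control inputs, whose 2 preparations differ in genotype.

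Polysome libraries hold mRNA from the gradient fractions with bound ribosomes, so the ratio to the matching input compares an mRNA there with its level in the whole extract. On control polysomes 6 of 7 members were lower than in their inputs. For osk the levels were 457 and 112 TPM on control polysomes, against 841 and 718 TPM in control inputs (-1.78, SE 0.36, adjusted p = 0.00520). For vas they were 101 and 95.4 TPM on control polysomes, against 291 and 216 TPM in control inputs (-1.34, SE 0.20, adjusted p = 0.00218). The others were nos (-1.33), tud (-1.34), pgc (404 and 79.0 TPM on control polysomes, against 564 and 229 TPM) and gcl (-0.81), with adjusted p of 0.00305 to 0.0355. On control polysomes 41.7% of all genes were called and 38.4% as lower, a direction that turned when libraries were scaled to equal medians (13% as higher and 6.07% as lower).

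Only vls stood above its matching input on both control polysome libraries, at 58.3 and 83.3 TPM, against 39.1 and 59.3 TPM (0.52, SE 0.20, adjusted p = 0.0615). It stood at percentile 94.7 of all fold changes, and osk at percentile 3.57. Eggshell genes summed to 91540 and 137113 TPM on control polysomes, against 42767 and 69805 TPM in control inputs, and so took up a larger part of the total. With equal medians the median of all genes was 0.05 in place of -0.55, and 19.1% of genes were called in all. None of the 6 was then called (osk -0.97, adjusted p = 0.0762), and vls was called higher (1.32, adjusted p = 0.00757). The tud call was also lost without the filter on low values (adjusted p = 0.0746) and the pgc call without the preparation as a block (adjusted p = 0.222). Without preparation 2, tud (adjusted p = 0.423), pgc (adjusted p = 0.169) and gcl (adjusted p = 0.307) were no longer called. Of 33 pathway genes 27 were lower on control polysomes and none higher, with a median of -1.46 beside -0.55 for all genes. With equal medians 13 of the 33 were lower and 2 higher, with a median of -0.68 beside 0.05 for all genes. The smallest adjusted p values were those of the Vasa partner gus (-1.83, SE 0.23), the kinesin heavy chain gene Khc (-1.91, SE 0.21), the osk translation repressor bru1 (-1.85, SE 0.21) and BicD (-1.77, SE 0.23), each with an adjusted p of 0.00184.

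Between polysomes and inputs of tst RNAi ovaries no member was called (0.035% of all genes were called, and pgc had an unadjusted p of 0.0140). Levels of nos were 70.0 and 56.6 TPM on tst RNAi polysomes, against 84.1 and 63.1 TPM in tst RNAi inputs, and those of osk 263 and 294 TPM, against 330 and 318 TPM. The largest difference was that of pgc, at 36.9 and 35.6 TPM on tst RNAi polysomes, against 64.1 and 66.2 TPM in tst RNAi inputs (-0.83, SE 0.27, adjusted p = 0.296). For tud the levels were 66.8 and 69.1 TPM on tst RNAi polysomes, against 54.5 and 37.8 TPM in tst RNAi inputs (0.57, SE 0.44, adjusted p = 0.710). None of the 33 pathway genes passed.

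In pelo mutant ovaries osk, nos and pgc were lower on polysomes, where 5.9% of all genes were called and 5.3% as lower. The level of pgc was 48.9 and 65.3 TPM on pelo mutant polysomes, against 165 and 136 TPM in pelo mutant inputs (-1.39, SE 0.27, adjusted p = 0.0344). That of nos was 91.5 and 77.5 TPM on pelo mutant polysomes, against 172 and 179 TPM in the inputs (-1.05, SE 0.23, adjusted p = 0.0409), and that of osk 235 and 171 TPM, against 503 and 602 TPM (-1.45, SE 0.36, adjusted p = 0.0484). All 3 calls were lost without the filter on low values (adjusted p = 0.0781 to 0.0979), with equal medians (0.0748 to 0.0884, where 0% of all genes were called) and without either preparation (0.101 to 0.477). Of 33 pathway genes 13 were lower, none of which passed with equal medians, led by bru1 (-1.19, SE 0.21), wisp (-1.70, SE 0.27), the osk transport factor stau (-1.65, SE 0.31) and the poly(A) binding protein gene pAbp (-1.42, SE 0.27), with adjusted p of 0.0337 to 0.0344.

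**Figure D4:**
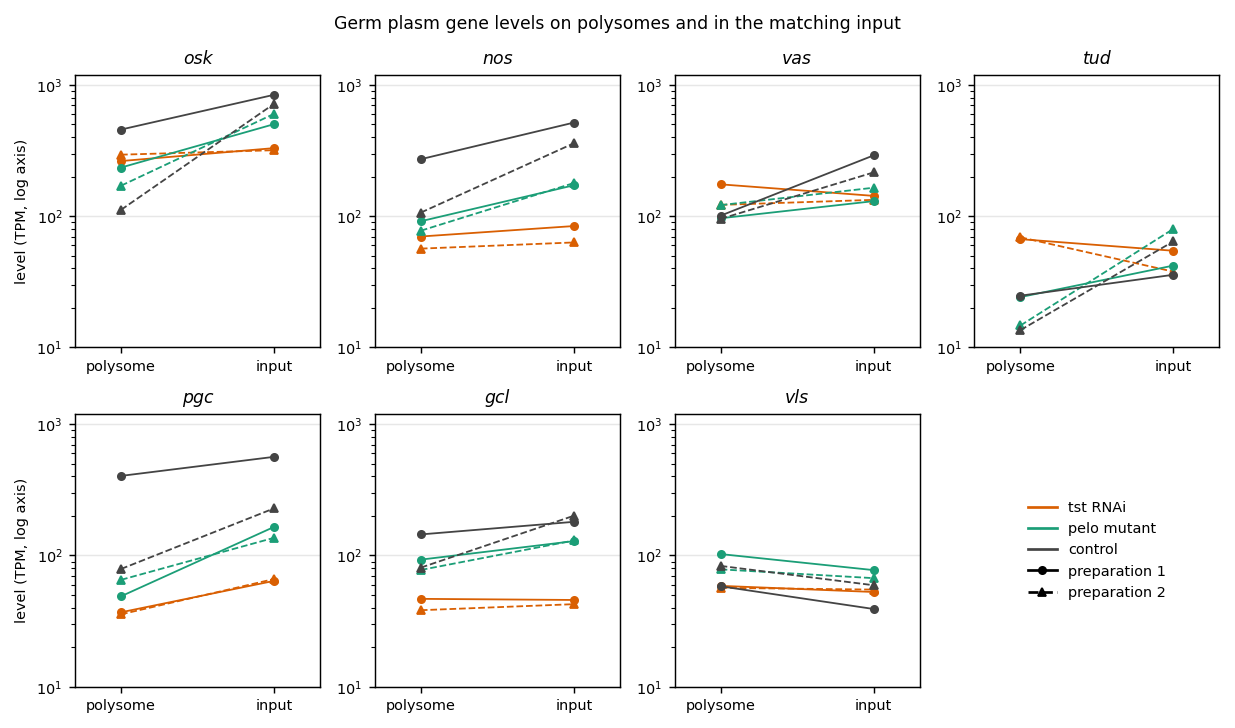
Level of each germ plasm gene in TPM on a log axis on polysomes (left of each panel) and in the matching input (right), with a line for each preparation. Control lines climb towards the input for osk (457 and 112 TPM on polysomes, 841 and 718 TPM in inputs), tst RNAi lines are nearly level for osk and nos, and vls lies above its input in each preparation.

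Each polysome to input ratio is one of TPM scaled to a fixed total, and not the share of an mRNA on polysomes. The difference of these ratios was taken between tst RNAi and control, whose 2 preparations differ in genotype. It was positive for 6 of 7 members and passed for nos (1.13, SE 0.33, adjusted p = 0.0374) and vas (1.42, SE 0.28, adjusted p = 0.0172), in a contrast where 23% of all genes were called and 22% as higher. The nos call was lost without either tst RNAi preparation or without control preparation 2 (adjusted p = 0.0602 to 0.228), and also without the filter on low values (adjusted p = 0.0568) or the preparation as a block (adjusted p = 0.148). The vas call was lost without either tst RNAi preparation (adjusted p = 0.181 and 0.189). Without control preparation 1 the values were 2.45 for osk, 2.74 for tud and 1.24 for gcl, beside a median of 0.72 for all genes. That fit, which leaves control with 1 preparation, added calls for these genes. With all libraries, osk (1.56, SE 0.51, adjusted p = 0.0541) and tud (1.91, SE 0.62, adjusted p = 0.0528) had values above those of nos and vas without passing. That of vls was -0.42 (SE 0.28, adjusted p = 0.279). The median of all genes was 0.70 and became -0.04 with equal medians, where 0% of genes were called and nos (0.23, adjusted p = 0.748) and vas (0.52, adjusted p = 0.494) were no longer called. Among the 33 pathway genes 23 were higher, none of them with equal medians, and the median was 1.42. They were led by gus (1.93, SE 0.33), the hnRNP gene sqd (2.21, SE 0.42), stau (2.35, SE 0.43) and bru1 (1.55, SE 0.30), with adjusted p of 0.0166 to 0.0172. For the pelo mutant ratio against control no gene of 8572 was called with limma (0% of all genes), 1140 had an unadjusted p under 0.05, and vas was the only member among them (0.91, SE 0.28, adjusted p = 0.374, and 0.0245 without control preparation 2).

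Ovaries deficient for bam hold germ cells that do not differentiate, and there osk and pgc were under 5 TPM while vas was abundant. Each library stands alone, so no test was made, and the bam mutant table was normalized separately. The level of osk was 2.46 TPM in the input of bam RNAi ovaries and 4.64 TPM in bam mutant ovaries, set beside 841 and 718 TPM in control inputs, and that of pgc 0.994 and 3.97 TPM, beside 564 and 229 TPM. By contrast vas was at 553 TPM with bam RNAi and 350 TPM in the bam mutant, above both control inputs (291 and 216 TPM). Between these stood nos, at 136 TPM with bam RNAi and 124 TPM in the mutant, against 516 and 360 TPM in control inputs, and gcl, at 33.7 and 39.5 TPM, against 181 and 201 TPM. The level of tud, 50.7 TPM with bam RNAi and 72.8 TPM in the mutant, was set against 35.8 and 64.3 TPM in the control inputs, and that of vls, 72.5 and 86.0 TPM, lay above them (39.1 and 59.3 TPM).

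The library labelled bam RNAi polysome had osk at 480 TPM and pgc at 181 TPM, against 2.46 TPM and 0.994 TPM in its input. It also had the chorion gene Cp15 at 4386 TPM, against 30.7 TPM in that input, bam itself at 18.9 TPM, against 3.10 TPM, and bgcn, a partner of bam, at 20.0 TPM, against 53.9 TPM. The 10 eggshell genes summed to 31313 TPM in this library, against 7393 TPM in its input, and the 6 chorion genes among them to 13165 TPM, against 92.5 TPM, so no polysome ratio is drawn from it. In the bam mutant the fat body list summed to 1991 TPM and the yolk genes to 34021 TPM, against 8.38 and 3381 TPM with bam RNAi. The eggshell list of the bam mutant summed to 42805 TPM, beside 42767 and 69805 TPM in control inputs, led by the vitelline membrane genes Vm34Ca (19687 TPM) and Vm26Aa (12810 TPM). Its 6 chorion genes summed to 2299 TPM, against 92.5 TPM in the input of bam RNAi ovaries, and the part of these RNAs in the osk and pgc values was not tested. Expression of bam was 5.61 TPM in the mutant, whereas control inputs had 65.1 and 40.1 TPM.

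**Figure D5:**
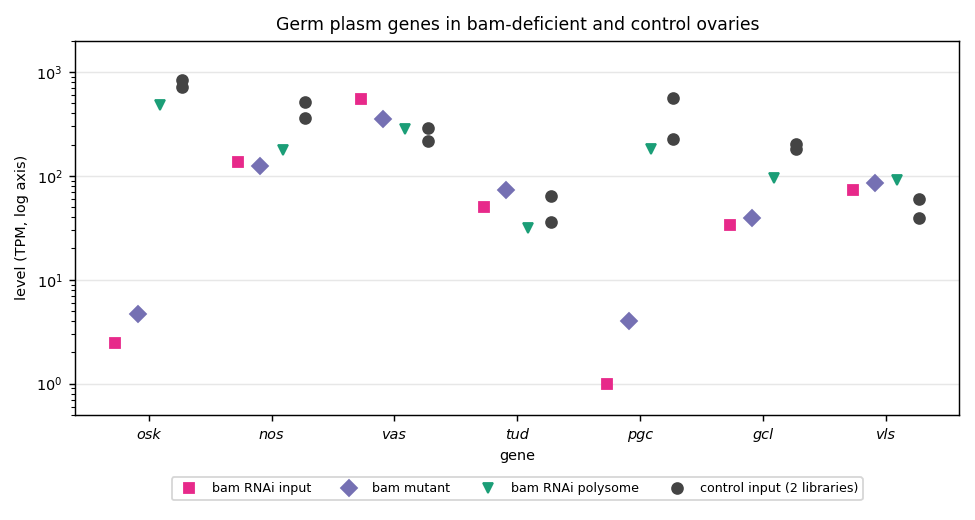
Level of each germ plasm gene in TPM on a log axis with bam RNAi (input), in the bam mutant, in the library labelled bam RNAi polysome and in the 2 control inputs. osk and pgc lie below 5 TPM in the first pair of libraries and above 100 TPM in the library labelled bam RNAi polysome and the control inputs, while vas is above both control inputs in that first pair.

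Across the 16 total mRNA libraries some members varied together, which is described here without a test since the libraries share groups and replicate sets. Pearson's r of log2(TPM + 1) was 0.96 between nos and gcl, 0.85 between nos and pgc and 0.85 between pgc and gcl. It was 0.81 between osk and vas and 0.78 between osk and tud, and only 0.34 between osk and pgc. For vls it was below 0 with each other member, from -0.66 with nos to -0.07 with tud. Among 6575 genes with a mean of at least 10 TPM, the pattern of gcl was most like that of CG6967 (0.99), which was also first for nos (0.97, followed by Grip71 and Ankle2). That of osk was most like clos and msk (0.96 each) and bru1 (0.95), which encodes the repressor of osk translation. The nearest genes were Vps35 for tud (0.99), cav for pgc (0.95), RanGAP for vas (0.90) and CG3704 for vls (0.84).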

How the data were processed

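Poly(A) RNA of Drosophila ovaries was sequenced by the authors with the NEXTflex Rapid Directional kit, per the labels' protocols. The submitters' processing notes name HISAT2 2.0.5, featureCounts 1.5.1 and the build dm6. Neither the annotation nor how TPM were calculated is given in those sources. Per the file headers, the authors deposited TPM on a log2 scale. Raised from log2 and less 0.5 they summed to the same total in every library, so they were read as log2(TPM + 0.5), turned back to TPM and put on the scale of log2(TPM + 1). This scale understates changes of genes with low levels.

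A gene was fitted if 2 libraries reached 1 TPM, using limma 3.58.1 in R 4.3.3 (trend in the variance, 2-sided tests), 8864 genes in the 16 total mRNA libraries and 8572 in the 12 input and polysome libraries, and all 7 members passed this filter. Each set had 1 fit because groups hold 2 libraries, with Benjamini-Hochberg adjustment over all genes tested. Polysome comparisons and ratio differences, which are interaction terms, included the preparation as a block, since each polysome sample has its own input per the labels. Among the wild type and tst groups, same-numbered libraries deviated together (correlations of 0.613 to 0.762), where replicate 1 has the strand label N/A and replicate 2 reverse, so the block is given beside those results. The limma code was tested on simulated data.

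The members and gene lists were chosen with earlier results of these data known. The pathway list had 35 genes, of which cup and BicC were not analysed here. Pathway genes named are those that passed, up to 4 in each direction by smallest adjusted p, and genes of like pattern are the nearest 3 by Pearson's r. Alternatives were a pseudocount of 0.5, no filter, equal library medians, other blocks, fits of fewer groups, and each library left out. Python 3.11.15 with matplotlib 3.10.9 drew the figures.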

Additional observations from a re-analysis of the deposited data

Results flagged for a closer look

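The difference of the polysome to input ratio between tst RNAi and control was flagged for nos (1.13) and vas (1.42), since this test of a difference between genotypes passed for both. In the same contrast 23% of all genes were called and 22% as higher, and the median of all genes was 0.70. Polysome levels of nos were 70.0 and 56.6 TPM in tst RNAi, with inputs at 84.1 and 63.1 TPM, against polysome levels of 272 and 107 TPM in control, with inputs at 516 and 360 TPM. For vas, tst RNAi polysomes were at 175 and 122 TPM with inputs at 143 and 133 TPM, against control polysomes at 101 and 95.4 TPM with inputs at 291 and 216 TPM. Neither was called when libraries were scaled to equal medians.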

How the results depend on the processing

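Of 98 results for single members in 14 comparisons, 67 alternatives reversed a direction, and none of these was called as first analysed or under the alternative. With equal library medians 12 turned round: tud became 0.014 in the pelo mutant, 0.11 in the hfp mutant, 0.093 in the hfp effect less the pelo effect, 0.37 in tst RNAi inputs and 0.41 in the tst RNAi effect in inputs less total mRNA, where vas became 0.21. The others were vas on tst RNAi polysomes (-0.012), pgc (-0.72) and gcl (-0.15) in the tst RNAi ratio difference, and osk (-0.14), nos (-0.18) and gcl (-0.25) in the pelo ratio difference. The other 55 came from leaving out a library or preparation, with these log2 ranges. They were osk -0.32 to 0.73, vas -0.067 to 0.35 and tud -0.25 to 0.71 in young wild type and tud -0.066 to 0.10 in the tst mutant. In tst RNAi they were osk -0.59 to 0.0060, nos -0.65 to 0.0050, tud -0.12 to 0.10 and gcl -0.34 to 0.059. In the pelo mutant they were osk -1.24 to 0.84, nos -1.81 to 0.83, tud -1.48 to 1.45, pgc -0.99 to 0.12 and gcl -1.39 to 0.84, and in the hfp mutant vas -1.86 to 0.059, tud -0.43 to 0.18 and vls -0.074 to 0.45. The hfp effect less the pelo effect gave osk -1.39 to 0.69, nos -1.92 to 0.71, vas -1.27 to 0.65, tud -1.58 to 1.35 and gcl -1.37 to 0.86. Inputs gave tud -0.49 to 0.33 and vls -0.14 to 0.45 in tst RNAi and tud -0.19 to 0.73 in the pelo mutant. The tst RNAi effect in inputs less total mRNA gave vas -0.73 to 0.17, tud -0.48 to 0.35 and vls -0.26 to 0.32. Polysomes of tst RNAi gave vas -0.13 to 0.29 and gcl -0.15 to 0.028. The ratio differences gave pgc -0.35 to 0.70 for tst RNAi, and for pelo osk -0.58 to 1.22, nos -0.13 to 0.70, tud -1.06 to 0.59, pgc -0.91 to 0.13 and gcl -0.28 to 0.70.

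The count of members called in young wild type was 1 as first analysed (11.1% of all genes), a call lost with any library left out. It was 3 with equal medians (14.9%), 4 with the replicate block (37.5%) and 4 in a fit of the 2 groups alone (26.6%). In the tst mutant it was 1 (4.23% of all genes), a call lost without tst mutant replicate 1 or either adult library. It was 5 under the replicate block (23.5%) and 0 in a fit of the 2 groups alone (1%). In tst RNAi inputs it was 4 (40% of all genes), of which the pgc and vas calls were lost when some libraries were left out. The replicate block (39.9%) added osk (adjusted p = 0.0460). In pelo mutant inputs the count was 1 (12.2% of all genes), a call lost with any library left out. It was 0 without the filter (11.7%) and 5 in a fit of the 6 inputs alone (31.5%). On control polysomes it was 6 (41.7% of all genes), with 1 under equal medians (19.1%), and the tud, pgc and gcl calls were lost without preparation 2. On pelo mutant polysomes it was 3 (5.9% of all genes), with 0 under no filter (0%), equal medians (0%) or no replicate block (0%). All 3 calls were also lost without either preparation. In the tst RNAi ratio difference it was 2 (23% of all genes), both calls lost without either tst RNAi preparation. Leaving out control preparation 1 instead added calls for osk, tud and gcl, in a fit with 1 control preparation. The count was 1 under no filter (13.5%), 0 under equal medians (0%) and 1 under no replicate block (12.9%). In the pelo ratio difference it was 0 (0%). The replicate block called 2 members, nos and gcl, in the tst RNAi effect in inputs less total mRNA. The block changed no other count by more than 1.5 times. Same-numbered inputs did not deviate together (correlations of -0.0066 for tst RNAi and -0.068 for pelo with control). Where a library left out leaves a group with 1, that library is assumed to vary like the other groups. Causes of these changes were not tested. With 2 libraries a group and no read counts, small differences in any member were not detectable.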
